A study of Mus musculus with 113 samples.

Results

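Cdx2, Gata3, Tead4, Tfap2c, Tfap2a, Eomes and Elf3, 7 transcription factor genes known for their roles in the trophectoderm, were followed in mouse preimplantation embryos after knockdown (KD) or base editing of the nuclear receptor gene Nr5a2. They were taken by name, 7 of the 24006 genes in the expression tables, and all 7 were found in each of the 92 RNA-seq libraries. Embryos were of wild type genotype, from C57BL/6N females mated with PWK/PhJ males per the methods, at the 2-cell (2C), 4-cell (4C) and 8-cell (8C) stages. In the KD experiments, embryos received siRNAs before being pooled for RNA-seq, with 2 pools in each group. The 4KD experiment injected siRNAs against Nr5a2, Rarg, Nr1h3 and Nr2c2 together and compared 4C and 8C pools with negative control siRNA (NC, 20 µM). Each target was given 5 µM, a mix of several siRNAs per the methods, here called its siRNA. The 3KD experiment left out 1 of these 4 targets at a time and compared 8C pools with NC at 15 µM. The single KD experiment used 1 siRNA target at a time at 8C, with NC at 5 µM, and Nr5a2 was also knocked down alone at 2C (20 µM for KD and NC). In the base editing experiment, single embryos at 2C or 8C had been given base editor mRNA alone (BE, 8 embryos per stage), guide RNA against Nr5a2 alone (sgRNA, 8 per stage) or both (BE + sgRNA, 14 per stage), at 100 ng/µl of RNA. Each embryo or pool gives 1 library of all its cells, so fewer cells with a transcript and less of it per cell cannot be told apart.

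The trophectoderm is the outer epithelium of the blastocyst and founds the placenta, while the inner cell mass founds the embryo proper. TEAD4 is a DNA-binding factor that works with the coactivators YAP1 and WWTR1 in outer cells, where Hippo signaling is low, and is required for trophectoderm formation. CDX2 and GATA3 act below TEAD4. TFAP2C and its relative TFAP2A are AP-2 factors, EOMES is a T-box factor of trophoblast stem cells, and ELF3 is an epithelial ETS factor. NR5A2 is an orphan nuclear receptor that is also expressed in liver, pancreas and pluripotent cells.

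Promoter windows of 300 bases, from 250 before to 50 after the RefSeq start of each gene (GRCm38.p6), were at hand for 5 of the 7 members (6 windows, 2 of them of Tfap2a). Those of Elf3 and Gata3 are shown because Elf3 is the member called under Nr5a2 siRNA below and because these 2 had the highest correlation of the 10 pairs between 8C embryos. Capitals mark GGAATG, the core read by TEAD factors, in Elf3 (chr1:135258423-135258722, minus strand) and GCCNNNGGC, the core of AP-2 sites, in Gata3 (chr2:9878551-9878850, minus strand).
Elf3: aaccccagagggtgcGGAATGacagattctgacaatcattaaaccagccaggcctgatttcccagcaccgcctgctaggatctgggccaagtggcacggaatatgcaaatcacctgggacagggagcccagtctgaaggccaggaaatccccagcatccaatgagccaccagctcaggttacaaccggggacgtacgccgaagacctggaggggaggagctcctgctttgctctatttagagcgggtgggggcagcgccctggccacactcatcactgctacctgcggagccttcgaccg
Gata3: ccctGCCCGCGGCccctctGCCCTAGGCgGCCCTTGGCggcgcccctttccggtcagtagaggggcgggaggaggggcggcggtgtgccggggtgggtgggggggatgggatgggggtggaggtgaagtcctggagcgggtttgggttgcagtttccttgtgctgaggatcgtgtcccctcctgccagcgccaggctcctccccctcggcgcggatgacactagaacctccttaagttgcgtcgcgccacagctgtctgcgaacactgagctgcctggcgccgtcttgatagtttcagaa
Both strands were searched, and no matches overlapped. Elf3 had 1 GGAATG at position 16 of the window, a motif held by 14.66% of all 32851 promoter windows of the same length. Gata3 had 3 GCCNNNGGC, at positions 5, 20 and 30, and Cdx2 had 1, against 16.59% of windows with at least 1. The NR5A2 core AAGGTCA, found in 4.72% of windows, matched in none of the 6 member windows. These matches are descriptions of letters, not of binding. In the mm9 annotation the members lie on chromosome 5 (Cdx2, 148112381 to 148118846), chromosome 2 (Gata3, 9778705 to 9811661, and Tfap2c, listed there as Tcfap2c, 172375093 to 172384122), chromosome 6 (Tead4, 128174306 to 128250841), chromosome 13 (Tfap2a, listed as Tcfap2a, 40811044 to 40829192), chromosome 9 (Eomes, 118387330 to 118395250) and chromosome 1 (Elf3, 137150151 to 137155049).

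Expression was given as FPKM (fragments mapped, scaled to transcript length and to the mapped fragments of the library). FPKM summed to between 83392 and 556462 per library over all genes, relative depth ranged from 0.363 to 1.516, and 5472 to 11921 genes reached 1 FPKM. Nr5a2 itself was 3.90 to 12.8 FPKM in the 10 8C pools with its siRNA and 27.1 to 50.2 in the 14 without. It was not lowered in the 8C BE + sgRNA embryos (log2 fold change 0.21, adjusted p = 0.831, limma). The editor acts on the sequence of the gene, and the edit itself was not checked here. Oocyte markers summed to a median of 1375 FPKM in the 16 single 2C control embryos and of 30.1 in the 16 at 8C, and 2-cell markers to medians of 530 and 6.13. The deposited column names of 3 libraries gave the 4-cell stage against their labels: 2C sgRNA replicate 8, whose 2-cell markers summed to 2.67 FPKM, and 8C BE + sgRNA replicates 13 and 14 (189 and 36.3). These markers do not set the latter 2 apart, since another 8C BE + sgRNA library reached 330 FPKM and an 8C Nr2c2 KD pool 305. The members' single-embryo differences were refitted without the 3 libraries named as 4-cell, and the correlations without the 2 of them at 8C. The library of 8C BE + sgRNA replicate 8 was also apart, with an FPKM sum of 83392 against at least 290564 in the rest of its group, 5472 genes at 1 FPKM and a relative depth of 0.54. The 8C sgRNA replicates 5 to 8 had FPKM sums of 207918 to 268257, against 428014 to 466564 in replicates 1 to 4. Of 9 cumulus cell markers, 1 averaged at least 1 FPKM over all libraries and the list summed to 1.03 to 75.8 FPKM.

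Through the stages, Tead4 rose most among the members, Tfap2c rose too, Cdx2 went from mostly 0 to low levels, Gata3 and Eomes did not pass the test, and Elf3 did not follow them. The 16 single control embryos (BE or sgRNA) at 8C were compared with the 16 at 2C by limma on log2(FPKM + 1), with a call at an adjusted p under 0.05 over all genes tested. Of the 6 members that passed the filter of 1 FPKM in a group, 3 were called higher and 0 lower, while 72.6% of all 12824 genes were called and 29.2% were called higher. The same 3 had an unadjusted p under 0.05, as did 74.6% of genes. Cdx2, 1 of the 3, averaged 1 FPKM only in the 8C groups and so passed the filter through the groups where it is high, which leaves Tead4 and Tfap2c as the calls free of that limit. As a description, the median log2 fold change was 0.71 for the 6 members and -0.31 for all genes.

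Tead4 was 0.315 to 38.5 FPKM at 2C, with a median of 3.24, and 17.4 to 106 at 8C, with a median of 57.4. The groups overlapped only through 2C embryos at 23.3 and 38.5 and 1 8C embryo at 17.4, and the 2C embryo at 38.5 was the library whose column name gives the 4-cell stage. Tead4 was higher by 3.66 on the log2 scale (SE 0.34, adjusted p = 2.22e-11, 16 against 16 embryos), and by 3.88 without that library. The NC pools placed it at 5.58 and 9.94 at 2C, 43.1 and 23.7 at 4C, and 32.4 to 70.1 in the 6 pools at 8C. Both pools at 4C thus lay above those at 2C, which were made in another experiment, and within the 4KD experiment the 8C NC pools (33.9 and 51.3) overlapped those at 4C (0.37, SE 0.46, adjusted p = 0.895). In that contrast 0 of 4 members were called by limma and 0 had an unadjusted p under 0.05, against 0% and 7.41% of all genes.

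Tfap2c was already expressed in every 2C embryo, at 2.58 to 54.4 FPKM with a median of 10.7, against 10.6 to 70.8 with a median of 47.4 at 8C. The ranges overlapped widely, and the rise was 1.61 (SE 0.32, adjusted p = 4.17e-05), or 1.73 without the library named as 4-cell. The NC pools held 17.8 and 32.3 FPKM at 2C, 40.3 and 44.9 at 4C and 15.0 to 63.3 at 8C.

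Cdx2, the homeobox factor that holds trophectoderm identity, was listed at 0 in 13 of 16 embryos at 2C, with a highest value of 0.893 FPKM. At 8C it ranged from 0 to 6.27 with a median of 0.716, and 5 of 16 embryos reached 1 FPKM. The difference was 0.88 (SE 0.24, adjusted p = 0.0017, and 0.87 without the library named as 4-cell), and it is a description, since a gene admitted through its high groups had to differ. Embryos listed at 0 remained at 8C. Over all 92 libraries Cdx2 was listed at 0 in 46 and at 1 FPKM or more in 15.

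Gata3, a zinc finger factor of the trophoblast, reached 1 FPKM in 9 of 16 embryos at 2C and in 12 of 16 at 8C. Its log2 fold change was 0.55 (SE 0.33, adjusted p = 0.136), or 0.47 without the library named as 4-cell. NC pools gave 1.88 and 0.851 FPKM at 2C, 2.27 and 0.606 at 4C and, over the 6 pools at 8C, 1.37 to 5.34. In the 4KD experiment the NC pools at 8C (3.18 and 5.34) lay above those at 4C without overlap, which held for 1 of the 4 members and 16.2% of genes, with a difference of 1.17 (SE 0.55, adjusted p = 0.697).

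Elf3 was high at 2C and uneven afterwards. Single 2C control embryos ranged from 0 to 54.1 FPKM and those at 8C from 0.42 to 42.5, and the 2C NC pools held 35.1 and 8.78. At 4C the NC pools fell apart at 15.5 and 2.12, and the 6 at 8C covered 6.21 to 49.3. The log2 fold change between 2C and 8C was -0.97 (SE 0.53, adjusted p = 0.0949). Leaving out 1 of 2 embryos at 0 made it a call, at -1.21 both without the library named as 4-cell (adjusted p = 0.0296) and without that of the lowest FPKM sum (adjusted p = 0.0299). Library numbers and column names divide the embryos into 2 runs, eBE and BE4, named for the editor, and no 2C sgRNA embryo is in the BE4 run. Within the eBE run Elf3 differed by -0.15 between the stages (adjusted p = 0.837), and within the BE4 run, where 4 BE embryos stood at each stage, by -2.48 (adjusted p = 0.0129). At 8C the eBE controls averaged 19.4 FPKM (BE) and 22.7 (sgRNA) and the BE4 controls 8.19 and 2.84, against 35.3 in the BE4 embryos (BE) at 2C. The 2 run values use unlike controls, BE and sgRNA embryos in the eBE run and BE embryos alone in the BE4 run. They therefore do not place the lower level at 8C in 1 run. The BE4 sgRNA embryos at 8C had low FPKM sums (207918 to 268257), and the part of this in Elf3 was not tested. Within these runs, fits added after the data had been seen, Tead4 differed by 3.61 and 4.55 and Tfap2c by 1.94 and 1.96, all called.

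Eomes and Tfap2a stayed low. Eomes averaged at least 1 FPKM in 4 of 22 groups, was listed at 0 in 21 of 92 libraries and differed by -0.32 between 8C and 2C embryos (SE 0.29, adjusted p = 0.32), or by -0.40 without the library named as 4-cell. Tfap2a averaged below 1 FPKM in all 22 groups, was listed at 0 in 50 libraries and reached 1 FPKM in 3, so that it was not tested. In the 8C NC pools the members thus ordered as Tead4 and Tfap2c, whose ranges overlapped, then Elf3, which overlapped both, then Gata3 below them, and Cdx2 and Eomes below Gata3 (0 to 1.03 and 0 to 1.01). Tfap2a was listed at 0 in all 6.

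**Figure D1:**
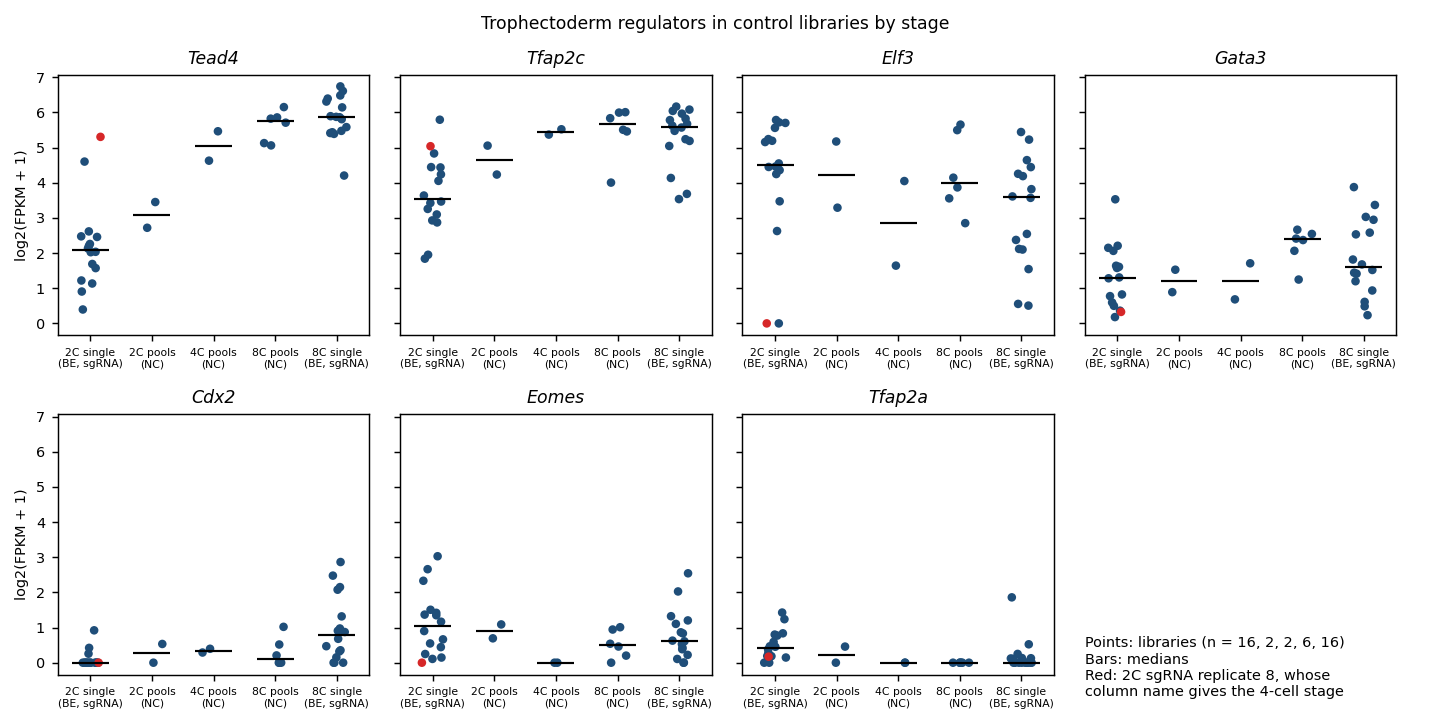
FPKM of the 7 genes in control libraries by stage, as log2(FPKM + 1), with 1 point per single embryo or pool and a bar at the median. Tead4 lies near 2 at 2C and near 6 at 8C, Elf3 spreads over the whole range at both stages, and Tfap2a stays near 0.

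The genes that work beside the members also moved with stage, against the same background of 72.6% of genes called. Of 13 tested partners of TEAD and members of the Hippo pathway, 4 were higher and 5 lower at 8C. Yap1, the TEAD coactivator, fell by 1.65 (SE 0.23, adjusted p = 1.02e-07), while its paralog Wwtr1 was higher by 1.77 (SE 0.25, adjusted p = 1.5e-07). Of 9 further trophectoderm regulators, 5 were higher and 2 lower, among them the Krüppel-like factor Klf5 at 2.75 (SE 0.34) and Id2, an inhibitor of helix-loop-helix factors, at -3.59 (SE 0.50). Of 14 structural genes of the trophectoderm, 7 were higher and 4 lower. Cldn4, a tight junction claudin, was higher by 5.19 (SE 0.42) and the keratin Krt8 by 1.03 (SE 0.42, adjusted p = 0.0262), while Krt18 at 0.76 was not called. Of 11 tested paralogs of the members, 2 were higher and 7 lower, with Gata6 at 4.49 (SE 0.30) above Gata3 in the size of its difference. Of 6 genes of the inner cell mass, 4 were higher and none lower, including Nanog at 2.88 (SE 0.32) and Pou5f1 at 1.87 (SE 0.35).

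To ask how the members respond to loss of each receptor, the 8C single KD pools were compared with NC. In the Nr5a2 KD all 5 tested members lay below NC, but none passed the test, and all 5 also lay below NC in the Rarg KD and 4 of 5 in the Nr1h3 KD and in the Nr2c2 KD. With limma, 0 of 5 were called and 2 had an unadjusted p under 0.05, against 2.75% of 10163 genes called. These 279 genes became 29 without NC replicate 1 and 6 without NC replicate 2. In the same contrast 18.1% of genes had an unadjusted p under 0.05. The median log2 fold change was -0.90 for the members and -0.22 for all genes. Cdx2 averaged 1 FPKM in the Nr2c2 KD alone and so passed the filter only through a group where it is high. With 2 pools against 2, an exact permutation test cannot give a p below 0.333.

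Elf3 was 13.6 and 44.1 FPKM in the NC pools and 2.21 and 11.7 in the Nr5a2 KD pools. The groups did not overlap, with a difference of -2.01 (SE 0.68, 95% interval -3.50 to -0.51, adjusted p = 0.148). It was -2.82 without NC replicate 1, -1.19 without NC replicate 2 and -1.02 without Nr5a2 KD replicate 1, none of them called. Elf3 was 20.0 and 25.6 FPKM after Rarg KD, 28.6 and 21.7 after Nr1h3 KD and 11.2 and 25.9 after Nr2c2 KD, all overlapping NC.

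Tead4 was 70.1 and 57.0 FPKM in NC and 36.6 and 24.4 after Nr5a2 KD, again without overlap. The log2 fold change was -1.05 (SE 0.45, adjusted p = 0.237). After Rarg, Nr1h3 and Nr2c2 KD it was 29.6 and 62.0, 48.8 and 61.0, and 74.9 and 41.9 FPKM. The Rarg KD pool at 29.6 lay between the Nr5a2 KD pools.

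Gata3 was 4.17 and 4.83 FPKM in NC and 1.25 and 2.86 in the Nr5a2 KD. It was just as low in the Nr1h3 KD (1.14 and 2.22) and lower still in the Nr2c2 KD (0.415 and 1.81), with differences from NC of -0.90, -1.06 and -1.46 that all missed the threshold (adjusted p = 0.489, 1.0 and 0.93). Cdx2 was 1.03 and 0.431 FPKM in NC and listed at 0 in both Nr5a2 KD pools, and it was at 0 and 1.03 after Rarg KD, 0.596 and 0.391 after Nr1h3 KD and 0.164 and 2.51 after Nr2c2 KD. Tfap2c was 63.3 and 56.1 FPKM in NC and 57.4 and 22.2 after Nr5a2 KD, where the pools differed by more than the groups did. After Rarg, Nr1h3 and Nr2c2 KD it was 35.5 and 44.9, 43.9 and 50.7, and 43.8 and 38.2 FPKM, each time below both NC pools. Lower values without overlap were found in the Nr5a2 KD for 4 of the 5 members and for 33.1% of all genes. They were found for 1 member (Tfap2c) and 19.6% of genes in the Rarg KD, for 2 members (Tfap2c and Gata3) and 18.9% in the Nr1h3 KD and for the same 2 and 33.9% in the Nr2c2 KD.

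After the KD of the other receptors, again with 0 of 5 members called by limma each, 0 members (Rarg), 0 (Nr1h3) and 1 (Nr2c2, Gata3) had an unadjusted p under 0.05. Among all genes 0.00984%, 0.00984% and 0.0787% were called, and 3.76%, 2.92% and 4.19% had an unadjusted p under 0.05. Of the 4 siRNA targets themselves, 0 were called in the Rarg KD, 0 in the Nr1h3 KD and 1, lower, in the Nr2c2 KD. These 4 comparisons share the 2 NC pools. The Nr5a2 KD was therefore also set against the mean of the other 3 KDs, which uses no NC pool, and where 0 of 5 members and 3.95% of genes were called by limma. At an unadjusted p under 0.05 there were 1 member and 19.5% of genes. Elf3 differed by -1.81 (SE 0.56, 95% interval -3.03 to -0.58, adjusted p = 0.098, with -0.82 without Nr5a2 KD replicate 1 and -2.80 without replicate 2), Tead4 by -0.74 (SE 0.36, adjusted p = 0.291) and Gata3 by 0.14 (SE 0.51, adjusted p = 0.918). Of the genes around the members, 3 of 8 trophectoderm regulators were lower in the Nr5a2 KD against NC, namely Klf5 (-2.98, SE 0.35), Hand1 (-3.08, SE 0.50) and Fgfr2 (-1.85, SE 0.42), and 0 of 13 TEAD partners were called in limma, with Yap1 at -0.25. Summed oocyte markers were 87.0 and 135 FPKM in the Nr5a2 KD pools and 36.2 and 46.0 in NC, although 5 of the 7 genes had a log2 fold change below 0 and 0 were called, none was listed at 0 in all pools of either group, and their part in these results was not tested.

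The 3KD experiment tested the converse, since the combination without Nr5a2 siRNA keeps the receptor. Elf3, Tead4 and Tfap2c had their highest group means of this experiment in that combination, but no member passed the test. All 4 tested members lay above the mean of the 3 combinations with Nr5a2 siRNA. With limma, 0 were called and 1 had an unadjusted p under 0.05, against 0.282% and 10.1% of 10626 genes. With the replicate number as a block, since the numbers pair the pools of this experiment, 262 rather than 30 genes were called and still 0 members.

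Elf3 was 42.9 and 10.8 FPKM without Nr5a2 siRNA, and 16.7 and 6.21 in NC. With Nr5a2 siRNA it was 0.505 and 8.62 where Rarg was spared, 4.45 and 13.5 where Nr1h3 was spared and 14.4 and 2.30 where Nr2c2 was spared. The pool at 10.8 lay within the range of the others, and the difference was 1.87 (SE 0.84, 95% interval 0.01 to 3.73, adjusted p = 0.487, and 0.26 with the block). It was 0.92 without replicate 1 of the combination without Nr5a2 siRNA and 2.82 without its replicate 2.

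Tfap2c was 50.8 and 30.9 FPKM without Nr5a2 siRNA and 16.5 to 29.4 in the 6 pools that received it. These did not overlap, which held for 1 of the 4 members and 8.59% of genes in this direction, and the difference of 0.81 (SE 0.45) had an adjusted p of 0.592, or 0.263 with the block. The NC pools, at 43.0 and 15.0 FPKM, spanned both. Tead4 differed by 0.43 (SE 0.38, 95% interval -0.39 to 1.26, adjusted p = 0.77). Gata3 reached its highest group mean of all 22 groups in the combination that spared Nr1h3 (14.3 and 3.83 FPKM), and it was 10.8 and 4.21 where Nr5a2 was spared, 5.02 and 2.35 for Rarg, 5.38 and 6.67 for Nr2c2 and 1.37 and 4.32 in NC. It differed by 0.28 (SE 0.58, adjusted p = 0.925) between pools without and with Nr5a2 siRNA. Cdx2 was listed at 0 in 5 of the 6 pools with Nr5a2 siRNA and was 0.456 and 0.541 FPKM in the combination without it. In the NC pools, also without Nr5a2 siRNA, Cdx2 was 0.154 and 0, and it was below the filter for a test.

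Against NC, each 3KD combination had 0 of 4 members called by limma and 0 at an unadjusted p under 0.05. Where Nr5a2, Rarg, Nr1h3 and Nr2c2 were spared, 0%, 0.0565%, 0.00941% and 0% of all genes were called and 2.36%, 6.25%, 6.95% and 7.37% had an unadjusted p under 0.05. The 4 comparisons share the NC pools, in which Elf3, Gata3 and Tfap2c each differed more than 2-fold between replicates.

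With siRNAs against all 4 targets, Tfap2c was the member that stood furthest apart at 8C. It was 44.4 and 62.8 FPKM in NC and 25.3 and 22.3 after 4KD, without overlap, a difference of -1.12 (SE 0.37, 95% interval -1.96 to -0.28, unadjusted p = 0.0146, adjusted p = 0.471, limma). At 4C it was 40.3 and 44.9 in NC and 36.5 and 40.2 after 4KD (-0.15, SE 0.37). With limma, 0 of 4 members were called at either stage, as were 0% of all genes at both, and 1 member at 8C and 0 at 4C had an unadjusted p under 0.05 (7.48% and 5.82% of genes). Lower values without overlap held for 2 of 4 members, Tfap2c and Gata3, and 19.2% of genes at 8C.

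Elf3 was 10.8 and 49.3 FPKM in 8C NC and 4.01 and 24.9 after 4KD, ranges that overlapped. The 4KD pool was the lower at each replicate number, a pairing that the fit did not use. At 4C Elf3 was 15.5 and 2.12 in NC and 1.71 and 1.02 after 4KD, with a difference of -1.62 (SE 1.02, adjusted p = 0.909). Gata3 was 3.18 and 5.34 in 8C NC and 1.78 and 2.89 after 4KD (-0.65, SE 0.55, adjusted p = 0.894), and Tead4 33.9 and 51.3 against 34.9 and 23.1 (-0.54, SE 0.46).

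At 2C, knockdown of Nr5a2 alone gave no call among the tested members, with 0 of 4 called by limma and 0 at an unadjusted p under 0.05, against 0.0167% and 4.67% of genes. Of the 4 siRNA targets, Nr5a2 among them, 0 were called in this comparison either. Tead4 was 5.58 and 9.94 FPKM in NC and 4.85 and 3.58 after KD (-0.71, SE 0.48, adjusted p = 0.89), lower without overlap, which held for 1 of 4 members and 8.28% of genes. Elf3 was 35.1 and 8.78 against 28.8 and 15.8 (0.25, SE 0.67), and Tfap2c 17.8 and 32.3 against 15.8 and 23.2.

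Because each KD experiment held 2 pools a group, all 24 8C pools were also fitted together, with 1 term for each of the 4 siRNA targets and 1 for the experiment. This fit was added after the data had been seen and uses the same pools as above, so it is not independent of them. Elf3 was lower with Nr5a2 siRNA, and it was the only member called. In this fit 1 of 5 members and 15.6% of 11290 genes were called (9.66% lower), and 4 of 5 members, Cdx2 among them, and 29.2% of genes had an unadjusted p under 0.05. Cdx2 passed the filter only through the Nr2c2 KD pools (0.164 and 2.51 FPKM), which had no Nr5a2 siRNA, so its values are a description. The median log2 fold change was -0.53 for the 5 members, also a description, and -0.02 for all genes.

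Elf3 was 0.505 to 24.9 FPKM in the 10 pools with Nr5a2 siRNA, with a median of 6.54, and 6.21 to 49.3 in the 14 pools without, with a median of 20.8. The ranges overlapped between 6.21 and 24.9 FPKM. The difference was -1.61 (SE 0.44, 95% interval -2.52 to -0.70, adjusted p = 0.0139). It lost its call without 3KD without Nr5a2 siRNA replicate 1 (-1.36, adjusted p = 0.0594) and without Nr5a2 KD replicate 1 (-1.32, adjusted p = 0.0828), and also without the single KD experiment (adjusted p = 0.256) or the 3KD experiment (adjusted p = 0.0794).

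Tead4 (-0.53, SE 0.21, adjusted p = 0.0852) and Tfap2c (-0.56, SE 0.22, adjusted p = 0.0896) were below 0 with intervals of -0.96 to -0.10 and -1.02 to -0.10, and missed the threshold. Cdx2 was listed at 0 in 9 of the 10 pools with Nr5a2 siRNA and in 4 of the 14 without. It differed by -0.46 (SE 0.18, adjusted p = 0.0891), a description only, since it passed the filter through a group without that siRNA. Gata3 differed by -0.04 (SE 0.34, 95% interval -0.73 to 0.65), and under other scalings its sign turned. The Rarg, Nr1h3 and Nr2c2 siRNA terms had 0 of 5 members called by limma and 0 at an unadjusted p under 0.05, with 0%, 0.0177% and 0.354% of genes called and 2.63%, 3.25% and 3.84% at an unadjusted p under 0.05. For Elf3 they were 0.63, 0.08 and -0.02 (SE 0.44 each). That Elf3 responded to Nr5a2 siRNA and not to these was not tested as a difference in this fit.

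**Figure D2:**
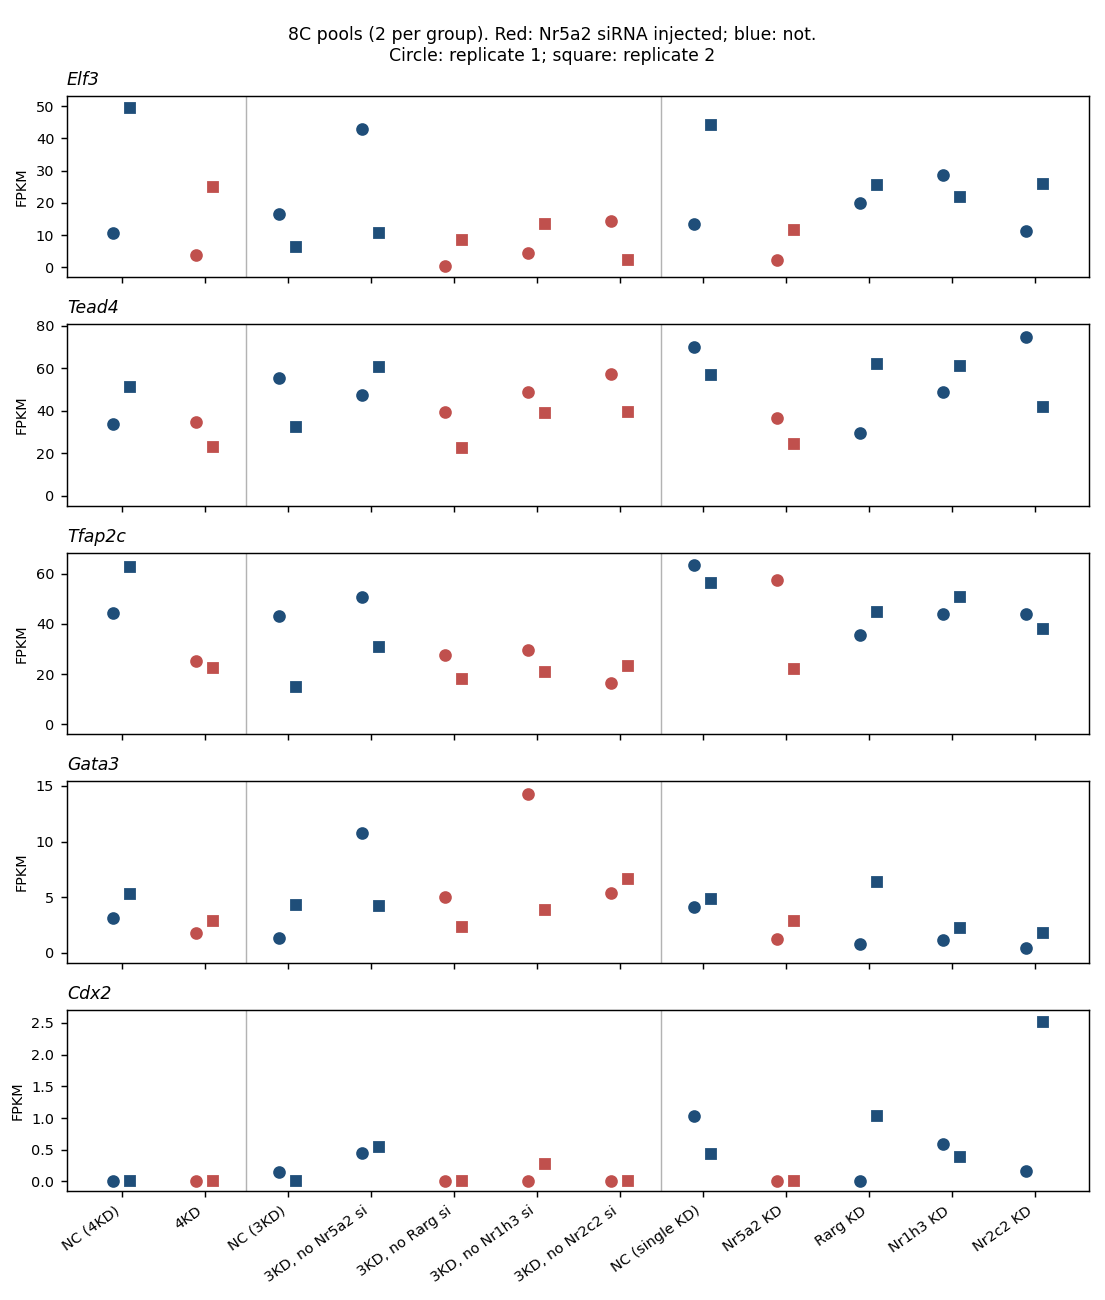
FPKM in each of the 24 8C pools, with groups on the horizontal axis, red for pools that received Nr5a2 siRNA and blue for those that did not. In the top panel the red points of Elf3 lie at 24.9 FPKM or below and the blue points at 6.21 or above, and in the bottom panel 9 of 10 red points of Cdx2 are at 0, as are some blue points.

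**Figure D3:**
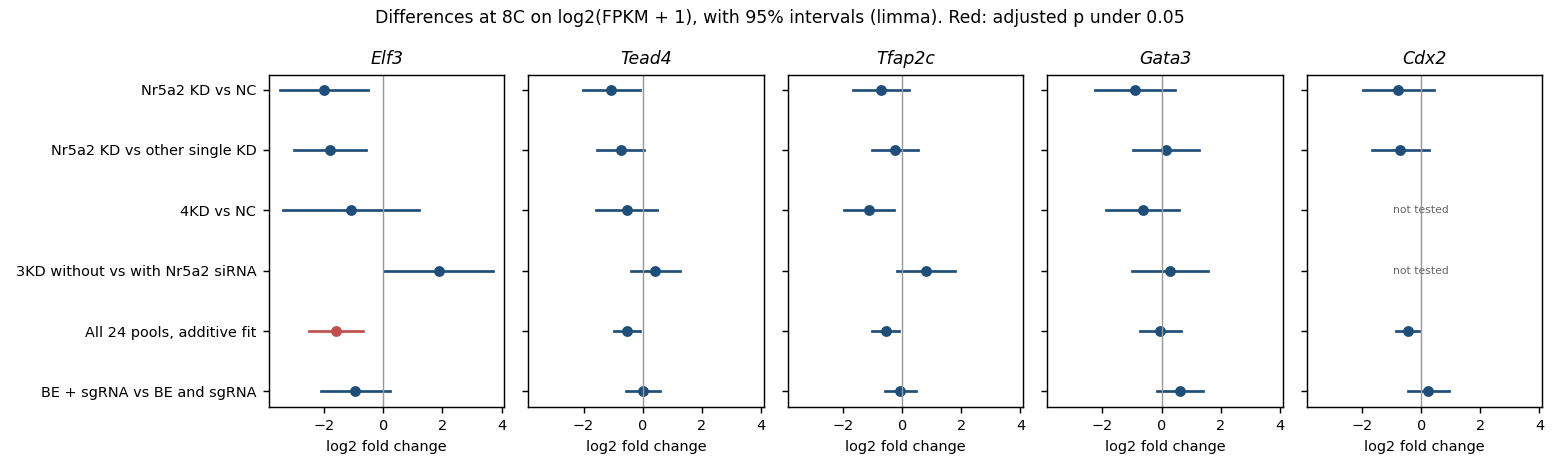
Differences of 5 members on log2(FPKM + 1) with 95% intervals from limma, 1 row per comparison at 8C, in red where the adjusted p was under 0.05. The sign of the 3KD row is opposite because the pools without Nr5a2 siRNA are compared with those that received it, and Elf3 in the additive fit, at -1.61, is the only red entry.

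Other genes of the same tissue split in both directions in this fit. Of 9 tested trophectoderm regulators 3 were lower and 1 higher, Klf5 at -1.74 (SE 0.21, adjusted p = 2.14e-06) and Hand1, a helix-loop-helix factor of trophoblast giant cells, at -2.01 (SE 0.34) among the lower. Of 14 structural genes 2 were lower and 3 higher, with Cldn4 at -1.38 (SE 0.33), Krt8 at 1.93 (SE 0.40, adjusted p = 0.00146) and the lectin Lgals3 at 1.14 (SE 0.26). Of 14 TEAD partners 2 were lower and 2 higher, with Wwtr1 at 1.03 (SE 0.18) and Yap1 at -0.01 (SE 0.26). Of 9 tested paralogs 2 were lower and 2 higher, with Gata1 at -1.11 (SE 0.25) and Gata4 at 1.02 (SE 0.26). Of 5 inner cell mass genes 2 were lower, Nanog at -2.23 (SE 0.26) and Tdgf1 at -3.67 (SE 0.39), and Pou5f1 at -0.89 was not called. Of the 7 oocyte markers 2 were higher, Zp3 at 1.58 (SE 0.26) and Zp2 at 0.94 (SE 0.32), and 0 were lower. By sign, 4 of the 7 lay above 0 and 3 below, with a median log2 fold change of 0.096. The list summed to 51.5 to 190 FPKM in the 10 pools with Nr5a2 siRNA and to 29.9 to 70.8 in the 14 without, no oocyte marker was at 0 in all pools of either set, and the part of this in the results was not tested.

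Base editing gave no call among the members at either stage. At 8C, with 14 BE + sgRNA embryos against the mean of 8 BE and 8 sgRNA embryos, 0 of 6 members were called by limma and 0 had an unadjusted p under 0.05, against 0.164% and 10.8% of 9760 genes. The members' median log2 fold change was 0.05, against 0.02 for all genes.

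Elf3 ranged from 0 to 31.6 FPKM in BE + sgRNA embryos, from 0.468 to 42.5 in BE embryos and from 0.42 to 36.4 in sgRNA embryos. The ranges of all 3 groups overlapped, although the median of the BE + sgRNA embryos lay below those of both control groups. The difference was -0.94 (SE 0.57, 95% interval -2.10 to 0.21, limma adjusted p = 0.59). Leaving out both libraries named as 4-cell in their columns, where Elf3 was 0 and 0.308 FPKM, it was -0.60 (adjusted p = 0.894). Without replicate 8, the library of the lowest FPKM sum, where Elf3 was 0.69 FPKM, it was -0.83 (adjusted p = 0.506). Within the eBE and BE4 runs Elf3 differed by -0.64 and -0.55. The runs themselves stood apart, since the 4 sgRNA embryos of the eBE run held 13.1 to 36.4 FPKM of Elf3 and the 4 of the BE4 run 0.42 to 4.83, without overlap. Their FPKM sums over all genes also stood apart, at 428014 to 466564 (eBE) and 207918 to 268257 (BE4), and the part of this in Elf3 was not tested.

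Gata3 was 0.0874 to 14.6 FPKM in BE + sgRNA embryos, 0.176 to 9.32 in BE embryos and 0.40 to 13.7 in sgRNA embryos. It reached 1 FPKM in 12 of 14 BE + sgRNA embryos, which are all those whose column name gives 8C, and in 12 of the 16 controls. The difference of 0.62 (SE 0.38, 95% interval -0.14 to 1.39) had an adjusted p of 0.59, and it was 0.96 without the 2 libraries, 0.87 in the eBE run and 1.04 in the BE4 run. Its direction was opposite to that at 8C in the single Nr5a2 KD (-0.90) and the 4KD (-0.65). It was the same as in the 3KD combinations with Nr5a2 siRNA, where Gata3 lay above NC (0.34 with Rarg spared, 1.27 with Nr1h3 and 0.98 with Nr2c2). The additive Nr5a2 term was -0.04. None of these differences passed the test.

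Tead4 differed by 0.01 (SE 0.28, 95% interval -0.55 to 0.57), or by 0.13 without replicate 8 (19.1 FPKM), with 14.6 to 120 FPKM in BE + sgRNA embryos and 17.4 to 106 in the controls. Tfap2c differed by -0.06 (SE 0.26, 95% interval -0.59 to 0.47), or by 0.06 without replicate 8 (11.3 FPKM). Cdx2 ranged from 0 to 7.19 FPKM in BE + sgRNA embryos and reached 1 FPKM in 7 of 14, against 5 of 16 controls, a difference of 0.24 (SE 0.34). Of the oocyte markers Gdf9 was higher in BE + sgRNA embryos by 1.84 (SE 0.38, adjusted p = 0.0459), or by 1.62 without both libraries named as 4-cell (adjusted p = 0.171, no longer called), and its part in these values was not tested.

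At 2C, 0 of 5 members were called by limma, 1 had an unadjusted p under 0.05 and 0.00805% of genes were called, with 11.6% at an unadjusted p under 0.05. That member, Eomes, was 0 to 2.68 FPKM in BE + sgRNA embryos and 0 to 7.15 in the controls (-0.61, SE 0.29, limma unadjusted p = 0.0398, adjusted p = 0.405). The difference was -0.69 without sgRNA replicate 8, the library named as 4-cell (adjusted p = 0.297). Eomes averaged 1 FPKM only in the control groups of this fit and so passed the filter through the groups where it is high. Its values here are therefore a description. Elf3 was 2.78 to 69.4 FPKM in BE + sgRNA embryos, and it differed by 0.81 (SE 0.52, adjusted p = 0.54), or by 0.58 without sgRNA replicate 8. By run the values at 2C pointed opposite ways, with 1.43 in the eBE run (6 BE + sgRNA embryos at a mean of 54.8 FPKM against 4 BE and 7 sgRNA) and -0.72 in the BE4 run (8 BE + sgRNA at 29.0 against 4 BE and no sgRNA embryo), neither called. The difference between the 2 stages in this effect was -1.75 (SE 0.79, unadjusted p = 0.0305, adjusted p = 0.462, limma with an interaction of stage and editing). It was -1.17 without the 3 libraries named as 4-cell, -2.07 in eBE embryos alone and -0.27 in BE4 embryos alone (adjusted p = 0.562, 0.499 and 0.939), and with 0 of 6 members and 0.0385% of genes called no member's effect was shown to differ between stages. Elf3 was the 1 member with an unadjusted p under 0.05, as were 9.68% of genes.

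**Figure D4:**
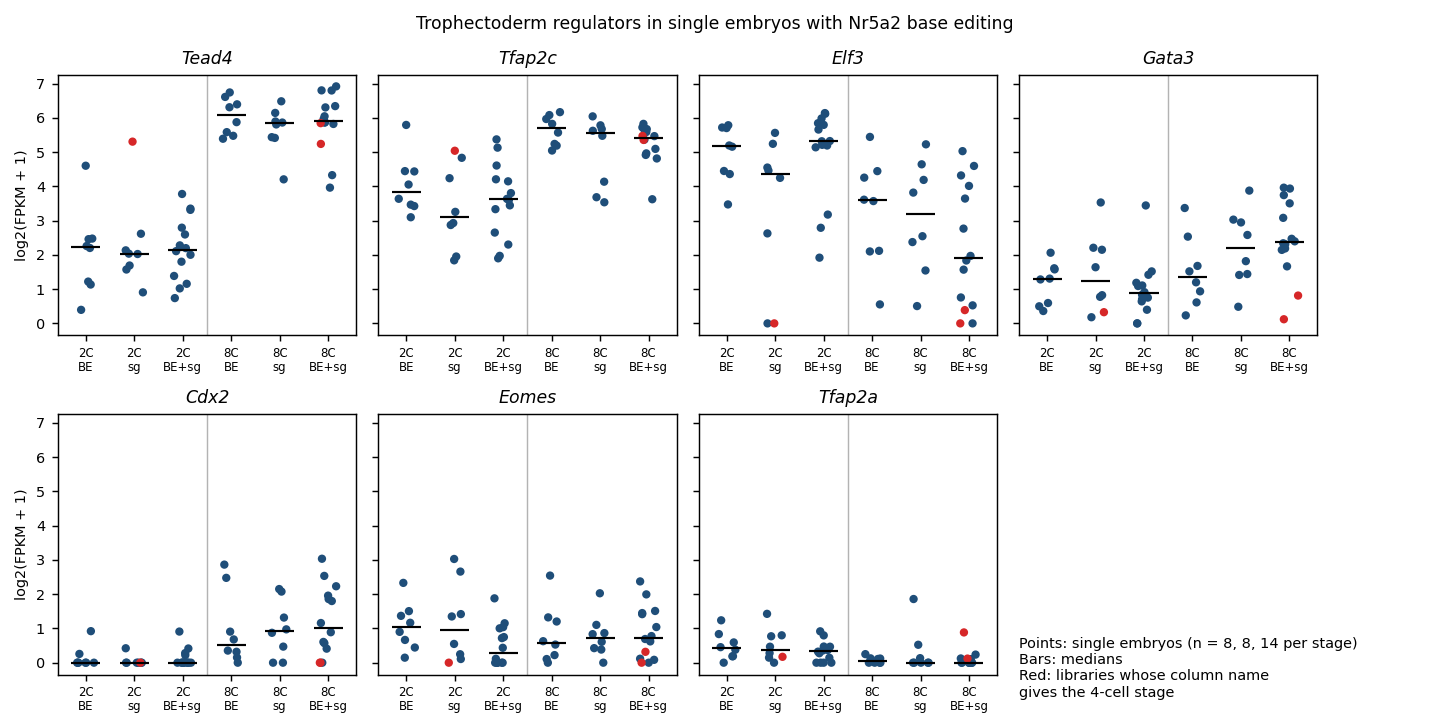
log2(FPKM + 1) of the 7 genes in the 60 single embryos by stage and injection, with 1 point per embryo, a bar at the median and red points for libraries whose column name gives the 4-cell stage. The 3 groups of each stage overlap for every gene, and the red 8C points are the lowest of their group for Gata3 and lie near 0 for Elf3.

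Among 8C embryos, the 3 pairs of Gata3, Elf3 and Cdx2 had the highest correlations in the 14 BE + sgRNA embryos and in the controls. Both sets pool the 2 runs, and the controls also pool BE and sgRNA embryos. After adjustment these pairs passed only in the BE + sgRNA embryos with all 14 or without the library of the lowest FPKM sum. Pairs of 5 members were correlated on log2(FPKM + 1), 10 pairs in each set, with p-values from permutation tests of 100000 resamples adjusted over the 10. In the 14 BE + sgRNA embryos Gata3 and Elf3 had a Pearson r of 0.796 (permutation p = 0.00055, adjusted p = 0.0055) and a Spearman rho of 0.761 (permutation p = 0.00245, adjusted p = 0.0245). In the same embryos Cdx2 and Elf3 had an r of 0.673 (permutation p = 0.0104, adjusted p = 0.0358) and a rho of 0.69 (permutation p = 0.00839, adjusted p = 0.0285), and Gata3 and Cdx2 an r of 0.654 (permutation p = 0.0107, adjusted p = 0.0358) and a rho of 0.687 (permutation p = 0.00856, adjusted p = 0.0285). Leaving out the 2 embryos farthest from the median of the x measure gave r of 0.766, 0.736 and 0.586. Leaving out both libraries named as 4-cell, the 12 others had r of 0.774 (permutation adjusted p = 0.0539), 0.568 (0.189) and 0.486 (0.269), and none passed. Whether those libraries or the smaller number of embryos removed the calls was not tested. In these 12 Tfap2c and Gata3 had an r of 0.595 (permutation p = 0.0282, adjusted p = 0.141), above 2 of the 3 pairs, with 0.255 in the eBE run and 0.699 in the BE4 run. Without the library of the lowest FPKM sum, the 13 others had r of 0.785, 0.689 and 0.665 (permutation adjusted p = 0.0103, 0.0402 and 0.0402). Within the 6 embryos of the eBE run r was 0.665, 0.373 and 0.162, and within the 6 of the BE4 run 0.754, 0.631 and 0.625.

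In the 16 control embryos the same 3 pairs had the 3 highest r, and none passed after adjustment. Gata3 and Elf3 had an r of 0.634 (permutation p = 0.00986, adjusted p = 0.0986) and a rho of 0.609 (permutation p = 0.0136, adjusted p = 0.0681), with 0.559 after leaving out the 2 farthest embryos. Cdx2 and Elf3 had an r of 0.538 (permutation p = 0.0323, adjusted p = 0.149) and a rho of 0.617 (permutation p = 0.0133, adjusted p = 0.0681), which went to an r of 0.367 without the 2 farthest embryos. Gata3 and Cdx2 had an r of 0.509 (permutation p = 0.0446, adjusted p = 0.149) and a rho of 0.528 (permutation p = 0.0386, adjusted p = 0.129), with 0.57 after leaving out 2. Within the 8 controls of each run the r of the 3 pairs were 0.612, 0.689 and 0.567 in the eBE run and 0.476, 0.784 and 0.575 in the BE4 run. Tead4 and Gata3 had an r of -0.268 in the controls and 0.392 in the BE + sgRNA embryos, and Tead4 and Tfap2c 0.267 and 0.258, none of them past the threshold. All 12 of the 30 8C embryos with Cdx2 at 1 FPKM or more also had Gata3 at 1 FPKM or more, which 24 embryos reached.

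**Figure D5:**
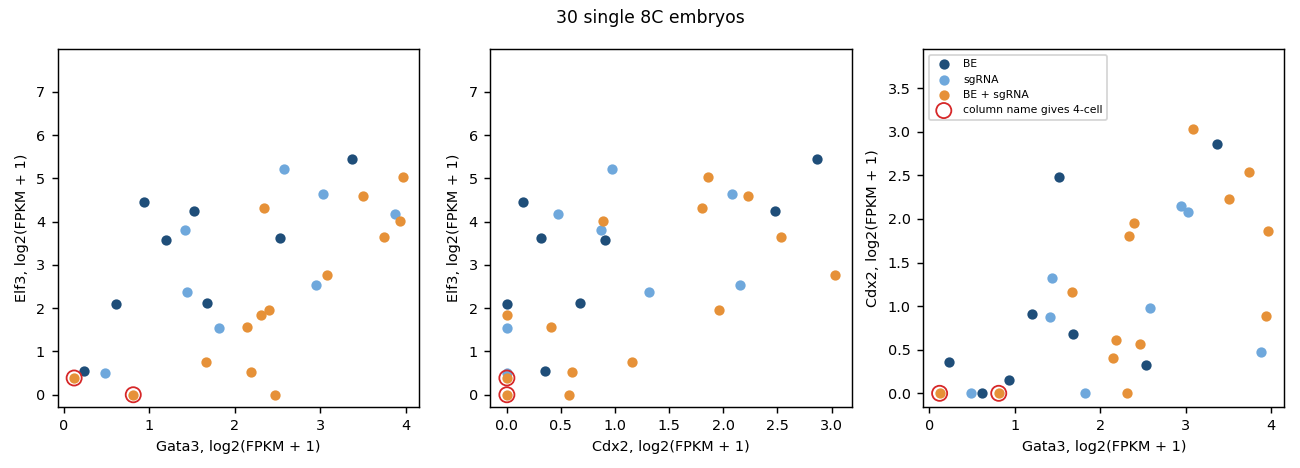
Each point is 1 of the 30 single 8C embryos, placed by log2(FPKM + 1) of 2 genes and colored by injection, with red rings on the 2 BE + sgRNA libraries whose column name gives the 4-cell stage. Points rise from lower left to upper right in all 3 panels, and the ringed libraries sit in the lower left corner.

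Over the means of all 22 groups, the genes most alike to each member were found by the Pearson r of mean log2(FPKM + 1), as a description in which stage sets much of the pattern. Tead4 was followed by Cyp2s1 (0.986), AU018091 (0.984) and Isyna1 (0.982), and Tfap2c by Akirin1 (0.918), Parp8 (0.917) and Eif5 (0.915). Elf3 was followed less closely, by Slc25a13 (0.857), 5730507C01Rik (0.844) and Tcn2 (0.833), as was Cdx2, by Mical3 (0.868), Fbxo31 (0.843) and Fam160b2 (0.839). Gata3 had the loosest matches, Arl13b (0.794), Ackr3 (0.783) and Dlg3 (0.779), and Eomes, low in most groups, had Usp38 (0.823), Prdm2 (0.808) and Smg1 (0.806).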

How the data were processed

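RNA-seq of 92 libraries was used, 32 pools and 60 single embryos. The labels list 21 further samples, which were not analysed here. The authors made the libraries with Smart-seq2, aligned reads to mm9 with TopHat and deposited FPKM values per gene, as computed by Cufflinks and not as counts. FPKM carry no counts, so count tests were not run and no counting intervals are given. A listed 0 can be a failed estimate. Relative depth was read from the steps of low FPKM values. Depth and the number of pools set the precision.

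Values were tested as log2(FPKM + 1) with limma 3.58.1 in R 4.3.3 (eBayes with trend, two-sided, Benjamini-Hochberg adjustment over the genes that averaged 1 FPKM or more in a group of the fit, call at an adjusted p under 0.05). Differences on this scale understate changes of low genes. Each experiment was fitted on its own, so that its groups share 1 estimate of the spread. The labels do not say whether pools or embryos came from separate litters, and p-values may measure technical spread. Correlations used permutation tests in Python 3.11.15 with scipy 1.17.1. The code was tested on simulated data: of genes changed by 2 on the log2 scale, 44.8% were recovered in the single Nr5a2 KD (10163 genes), 23.9% in the 3KD contrast (10626 genes), 0% in the 8C 4KD (10476 genes) and 0% in the 2C KD (11958 genes).

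The same replicate number in 2 groups of the 3KD experiment marked pools that deviated together (correlation of deviations 0.278 to 0.513 in all 10 pairs of groups), so these were read as paired. In the 4KD experiment, NC and 4KD pools of 1 stage also did so (0.346 at 4C and 0.336 at 8C). The main fits of both experiments did not use the pairing, and the block was run only as an alternative. Alternatives were the pseudocount, the filter, the scaling, the variance prior, the block, the limits of the call, the samples fitted and each library left out. The additive fit over 24 pools and the fits between stages within a run were chosen once the data had been seen. The 7 genes and all other lists were chosen with earlier results of these data known. Besides the members, the text names called genes of those lists (up to 6 each), Yap1, Klf5, Krt8, Krt18, Gata6, Nanog, Pou5f1 and the 3 most alike genes per member.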

Additional observations from a re-analysis of the deposited data

Results flagged for a closer look

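In groups of 8 embryos, 5 of 28 tests of a member's values found a library apart from the rest of its group by Dixon's criterion. Chance gives about 1 in 20 for values that vary freely, a rate that does not apply to the 3 tests with most embryos at 0: Cdx2 in 2C BE (6 of 8 at 0) and 2C sgRNA (7 of 8) and Tfap2a in 8C sgRNA (5 of 8). Cdx2 was 0.893 FPKM in 2C BE replicate 4, with the nearest at 0.194, and 0.339 in 2C sgRNA replicate 7, with all others listed at 0. Tead4 was 38.5 FPKM in 2C sgRNA replicate 8, with the nearest at 5.13, and the column name of this library gives the 4-cell stage. In 8C sgRNA replicate 7, the library with the lowest FPKM sum of its group (207918), Tead4 was 17.4 FPKM, with the nearest at 41.6. Tfap2a was 2.63 there, with the nearest at 0.437. Which of these reflect the embryo and which the library was not tested.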

How the results depend on the processing

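Of 281 counts of called members under alternatives, 268 stayed near that reported, 5 were lower and 8 higher. Between 2C and 8C, 3 members were called, 5 with TPM scaling (Elf3 and Tfap2a lower as well, Tfap2a at -0.84, adjusted p = 0.0244) and 1, Tead4, at the stricter limits of 0.01 for the adjusted p and 2 for the size of the log2 fold change. For the additive Nr5a2 term, 1 member was called. It was 2 with a pseudocount of 0.1, with TPM scaling or with Nr5a2 as the only siRNA term, 0 with the stricter limits, without the single KD experiment or without the 3KD experiment, and 0 to 3 leaving out 1 library (3 without Rarg KD replicate 1, 2 without 3KD NC replicate 2 or Nr2c2 KD replicate 1). Its difference for Gata3 (-0.04) turned to 0.03 with median-ratio scaling, 0.051 with TPM and 0.13 without the 4KD experiment, and ranged from -0.18 to 0.18 leaving out 1 library. Within the BE4 run the stage difference turned to -0.096 for Gata3 and 0.174 for Eomes (4 BE embryos a stage). Counts over all genes moved more. Against 279 reported for the Nr5a2 KD they ranged from 6 to 337 (6 without NC replicate 2, 29 without NC replicate 1), against 401 for the Nr5a2 KD and the other KDs from 101 to 582, against 30 for the 3KD contrast from 0 to 262, against 16 for 8C BE + sgRNA from 0 to 87, against 9306 for the stages from 2463 to 10881 and against 1761 in the additive fit from 110 to 2411. Scaling by median ratios moved the median of all genes in the Nr5a2 KD from -0.22 to 0.01, and in 8C against 2C from -0.31 to -0.44, or -0.70 with TPM. With the replicate number as a block, Elf3 was called in the Nr5a2 KD against the other KDs (1 member in place of 0, -1.81, adjusted p = 0.0477), though the numbers do not pair those pools (correlations -0.04 to 0.141, 2 of 10 over 0.1). In the 4KD experiment they were 0.346 between NC and 4KD at 4C and 0.336 at 8C, but -0.297 to -0.271 between pools of different stages. A block over both stages cannot take up this pairing. At 2C the value was 0.004. The block changed no other call of a member, and in the paired 3KD experiment it raised the calls over all genes against NC from 0 to 65 without Nr2c2 siRNA, 1 to 35 without Nr1h3 siRNA and 6 to 45 without Rarg siRNA. No depth is known in reads, and members under 1 FPKM in every group could not be tested. The causes of these changes were not tested.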
